A study of Mus musculus with 2 samples.

Results

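The mouse Fc receptors, the Fc receptor-like genes and their signalling adaptors were compared in blood-forming LSK cells of fetal liver and adult bone marrow. LSK cells are sorted as lacking lineage markers while bearing Sca-1 and c-Kit, a fraction that holds the stem cells and multipotent progenitors. The 10 genes, of 20655 named on the arrays, were chosen by symbol, with earlier results of these data known. They were found through the RefSeq accession of each array probe. They were the IgG receptors Fcgr1, Fcgr2b, Fcgr3 and Fcgr4, the adaptors Fcer1g and Tyrobp, the neonatal receptor Fcgrt, the receptor-like genes Fcrl1 and Fcrls, and Cd5l. Each was represented by 1 probe, printed as 1 spot except for Fcgr2b, whose probe was printed as 10 spots.

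One group was LSK cells from bone marrow of mice 8 weeks old, of strain C57BL/6 by the labels. The other was LSK cells from fetal liver at stage E14.5, for which the labels give no strain. Both groups were wild type and without transplantation, were sorted fresh by flow cytometry, and were hybridised to 1 single-colour Agilent array each. The labels do not say how many animals gave cells or which antibodies made up the lineage gate. With 1 array per group no difference has a replicate check and no p-value is given. Tissue, age and slide differ together between the groups and cannot be told apart, and whether the strain differs as well is not stated.

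Fc receptors bind the constant part of antibodies. Most activating receptors carry no signalling motif of their own and borrow one from an adaptor such as Fcer1g, the common gamma chain, whose ITAM (a tyrosine motif) recruits the kinase Syk. Tyrobp, also called DAP12, is a related ITAM adaptor for other myeloid and NK cell receptors. Fcgr2b is the inhibitory IgG receptor and signals through an ITIM, the motif that recruits the phosphatase Inpp5d. In mature blood these receptors are best known from macrophages, granulocytes, mast cells, NK cells and B cells, cell types that a lineage-negative sort is meant to remove.

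For orientation, the 250 bases before the RefSeq start site are shown 5′ to 3′ on the gene's strand for the 5 members that differed at least 2-fold between the arrays. They were read from RefSeq's table for build GRCm38.p6, which held a window for 9 of the 10 genes. Capitals mark GAGGAA on either strand, a core sequence bound by ETS factors such as the myeloid factor PU.1, and TTCNNNGAA, the form of site bound by STAT factors, and the marked motifs did not overlap. The windows lie at chr3:96293970-96294219, minus strand for Fcgr1, at chr1:170976072-170976321, minus strand for Fcgr2b, at chr3:87263525-87263774, minus strand for Fcrls, at chr3:87357631-87357880, plus strand for Cd5l and at chr3:87376137-87376386, plus strand for Fcrl1.
Fcgr1: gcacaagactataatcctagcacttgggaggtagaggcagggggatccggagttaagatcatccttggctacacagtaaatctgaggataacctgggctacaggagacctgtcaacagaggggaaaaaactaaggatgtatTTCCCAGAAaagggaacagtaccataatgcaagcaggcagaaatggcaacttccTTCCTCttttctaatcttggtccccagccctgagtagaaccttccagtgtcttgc
Fcgr2b: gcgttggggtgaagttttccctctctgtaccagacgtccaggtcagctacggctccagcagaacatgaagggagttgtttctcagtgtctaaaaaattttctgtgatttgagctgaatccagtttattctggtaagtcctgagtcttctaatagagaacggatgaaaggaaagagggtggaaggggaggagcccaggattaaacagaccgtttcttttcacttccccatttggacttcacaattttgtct
Fcrls: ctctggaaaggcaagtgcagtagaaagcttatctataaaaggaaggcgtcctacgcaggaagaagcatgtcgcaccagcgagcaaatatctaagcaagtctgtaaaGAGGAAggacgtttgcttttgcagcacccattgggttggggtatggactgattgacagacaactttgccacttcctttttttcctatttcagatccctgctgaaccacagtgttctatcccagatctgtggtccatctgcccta
Cd5l: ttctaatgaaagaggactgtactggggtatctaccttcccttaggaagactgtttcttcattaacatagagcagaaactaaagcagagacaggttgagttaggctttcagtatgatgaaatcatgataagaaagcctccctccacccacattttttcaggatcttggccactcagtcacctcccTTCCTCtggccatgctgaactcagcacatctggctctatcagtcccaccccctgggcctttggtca
Fcrl1: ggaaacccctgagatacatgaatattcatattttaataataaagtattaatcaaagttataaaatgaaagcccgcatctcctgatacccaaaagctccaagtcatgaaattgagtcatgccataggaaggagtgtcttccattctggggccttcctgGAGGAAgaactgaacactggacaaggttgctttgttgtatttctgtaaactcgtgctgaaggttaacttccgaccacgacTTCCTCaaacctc

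GAGGAA lay in the windows of 6 of the 9 genes, against 23.1% of all 27025 windows of this length. It was found in Fcgr1, Fcgr3, Fcgr4, Fcrl1, Fcrls and Cd5l, and not in Fcgr2b, Fcer1g or Fcgrt. TTCNNNGAA lay in the window of Fcgr1 alone among the 9, against 7.18% of all windows. The motifs were chosen after the windows had been seen, so these counts are a description and say nothing of binding.

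All 10 members were above background on at least 1 array. Each array was scaled to its 75th percentile, differences are log2 values with bone marrow subtracted from fetal liver, and ± gives the error of a value by the image software, which is technical only. A gene is said to pass toward a tissue where its scaled signal was at least 2-fold higher there. Of the 10 members, 4 passed toward fetal liver (Fcgr1, Fcrls, Cd5l and Fcrl1), beside 6.73% of all 13385 measured genes. Fcgr1, Fcrls and Cd5l were above background in fetal liver only. Their differences are bounds, which by rule could not point toward bone marrow. Bounds were 3 of the 10 members but 1134 of all measured genes, so these shares are not like for like. As the members were chosen with earlier results of these data known, their counts and medians are a description only. Fcgr2b alone passed toward bone marrow, beside 8.17% of all measured genes. The remaining 5 members, with both adaptors among them, were under 2-fold. The median difference of the members was 0.28, beside 0.11 for all measured genes. Over the 7 members above background on both arrays it was -0.11.

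The 4 members higher in fetal liver were dim, and dim genes passed 2-fold more often. Of 1507 measured genes whose brighter scaled signal lay in the range of these 4 members, 218 passed toward fetal liver and 238 toward bone marrow (15.8%). That range, set by the 4 members, also held Fcgr4. For 17 probes printed as 10 spots in that range, single spots gave log2 differences with an SD of 0.31, against 0.15 over 247 such probes of any brightness. After scaling by spike-in controls, which lowered each measured difference by 0.27, only Fcgr1 among the 10 still passed toward fetal liver, beside 4.12% of all genes, and Fcgr2b still passed toward bone marrow, beside 11.9%.

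**Figure D1:**
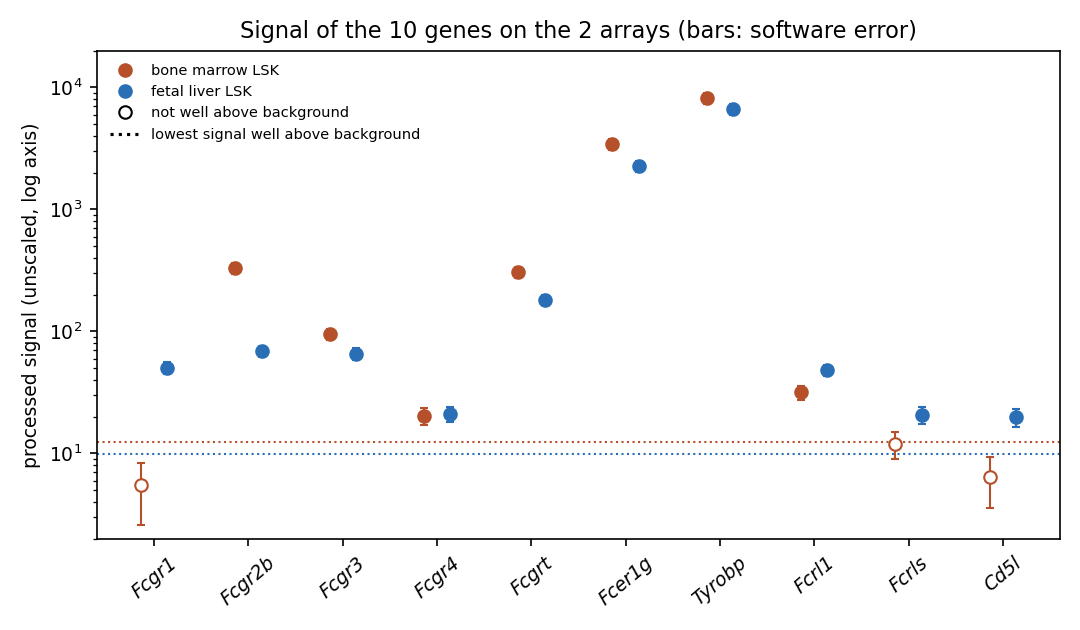
Processed signal, unscaled and on a log axis, of each of the 10 genes on the bone marrow array (orange) and the fetal liver array (blue), with the software error as bars; open points were not well above background and dotted lines mark each array's lowest signal that was. Fcgr2b is higher on the bone marrow array, Fcgr1, Fcrls and Cd5l are open there, and Fcer1g and Tyrobp lie close together on both.

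Among the IgG receptors, the inhibitory Fcgr2b and the high-affinity Fcgr1 differed most, in opposite directions. The Fcgr2b signal was 331 ± 33.3 in bone marrow against 69.4 ± 7.29 in fetal liver. That is 3.58-fold higher in bone marrow after scaling (-1.84 ± 0.21), at percentile 3.06 of the differences of all measured genes. The 10 spots of its probe ranged from 310 to 348, with a median of 334, on the bone marrow array. On the fetal liver array they ranged from 57.1 to 78.3, with a median of 70.4. The spots of the arrays did not overlap, and the lowest bone marrow spot was 2.96 times the highest fetal liver spot after scaling. Paired by position, the spots gave differences from -2.02 to -1.64 with an SD of 0.12, which is technical spread within 1 RNA sample per group. In each of the 13 alternative processing settings Fcgr2b passed toward bone marrow, from -2.11 with spike-in scaling to -1.29 with normexp background correction.

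**Figure D2:**
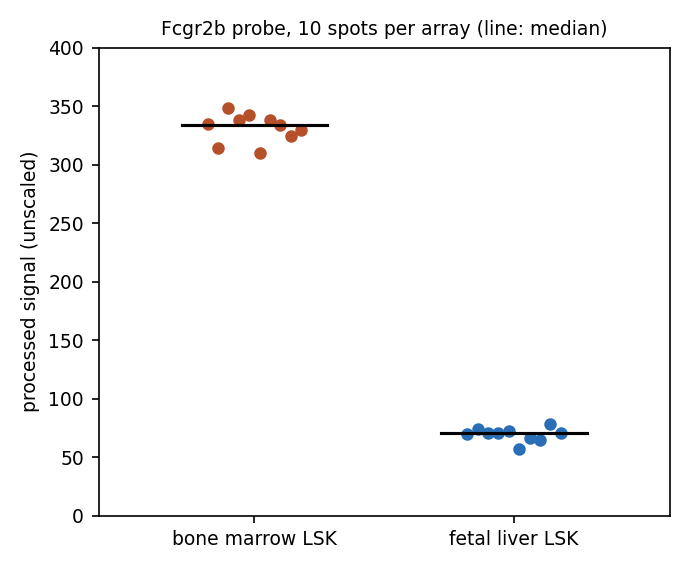
Processed signal, unscaled, of each of the 10 spots of the Fcgr2b probe on each array, with a line at the median. All bone marrow spots, from 310 to 348, lie above all fetal liver spots, from 57.1 to 78.3.

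Fcgr1, which encodes the high-affinity IgG receptor CD64 of monocytes and macrophages, had a signal of 5.52 ± 2.90 in bone marrow against 50.1 ± 5.65 in fetal liver. The bone marrow signal was not well above background. Against 12.4, the lowest bone marrow signal well above background, Fcgr1 was at least 5.41-fold brighter in fetal liver. With the 5th percentile of such signals as the floor instead, the log2 value of Fcgr1 was 1.95 rather than 2.44. Only normexp, whose offset compresses dim signals, put it under 2-fold (0.81 on the log2 scale) among the 11 alternatives that gave a value.

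Fcgr3, the low-affinity activating receptor CD16, was similar on both arrays. Its signals of 94.6 and 65.9, bone marrow first, gave a difference of -0.11 ± 0.22 after scaling. The difference of Fcgr2b minus that of Fcgr3 was -1.73 ± 0.30. Mouse Fcgr2b and Fcgr3 are closely related in their antibody-binding parts, the probe sequences were not used here, and cross-hybridisation between these genes was not tested. Fcgr4, another activating IgG receptor, gave low signals of 20.4 and 21.0, bone marrow first, with a difference of 0.45 ± 0.30.

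The ITAM adaptors Fcer1g and Tyrobp were both under 2-fold. Fcer1g had signals of 3417 in bone marrow against 2255 in fetal liver (-0.18 ± 0.20). Tyrobp had signals of 8195 in bone marrow against 6610 in fetal liver (0.11 ± 0.20), the middle of all measured genes at percentile 50.1. Both differences lay within 1 software error of 0. The sign of the Tyrobp value turned negative (-0.17 at the lowest) in 2 of 13 alternative settings.

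Fcgrt, the neonatal receptor that protects IgG from breakdown and pairs with B2m, had signals of 306 in bone marrow against 182 in fetal liver (-0.33 ± 0.21). Its light chain B2m, shared with the MHC class I molecules, was 3.53-fold higher in bone marrow (-1.82 ± 0.20). Spike-in scaling put Fcgrt at -0.61, still under 2-fold. Of the 7 members above background on both arrays, these 5 differed by less than 2 software errors: Fcgrt, Fcer1g, Fcgr3, Fcgr4 and Tyrobp.

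The receptor-like members and Cd5l were dim and just past 2-fold. Fcrl1, a B cell receptor-like gene, had signals of 31.8 in bone marrow against 48.3 in fetal liver (1.02 ± 0.25). Fcrls, a secreted receptor-like protein of mice known from microglia, had a signal of 20.8 ± 3.31 in fetal liver against 12.1 ± 3.01, not well above background, in bone marrow. It was at least 2.25-fold brighter in fetal liver. Cd5l, a secreted protein of tissue macrophages that binds IgM, had a signal of 19.8 ± 3.20 in fetal liver against 6.44 ± 2.90, not well above background, in bone marrow, which gives a bound of 2.14-fold. The bounds of Fcgr1, Fcrls and Cd5l take no account of the error of either signal, and the unbounded differences with their software errors were 3.60 ± 0.78, 1.20 ± 0.43 and 2.04 ± 0.69. With the 5th percentile of signals above background as the floor, their log2 bounds were 1.95, 0.68 and 0.61. Fcrls, Cd5l and Fcrl1 lie next to each other on chromosome 3 in this order, with 0 other protein-coding genes between them in RefSeq's table. Under spike-in scaling they were at 0.90, 0.83 and 0.75 in that order, and under normexp at 0.53, 0.46 and 0.49. Fcrl1 passed in 8 of 13 alternatives, and Fcrls and Cd5l each in 8 of the 11 that gave a value. The chromosome 3 stretch was cut at these members, so genes beyond it were not counted. Fcrl5, a receptor-like gene outside the 10, had signals of 2366 in bone marrow against 1612 in fetal liver (-0.14 ± 0.20). On chromosome 1 the members Fcgr2b, Fcgr4, Fcgr3 and Fcer1g lie in this order along a stretch with 7 other protein-coding genes. Of these 4 members, Fcgr2b alone passed 2-fold.

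**Figure D3:**
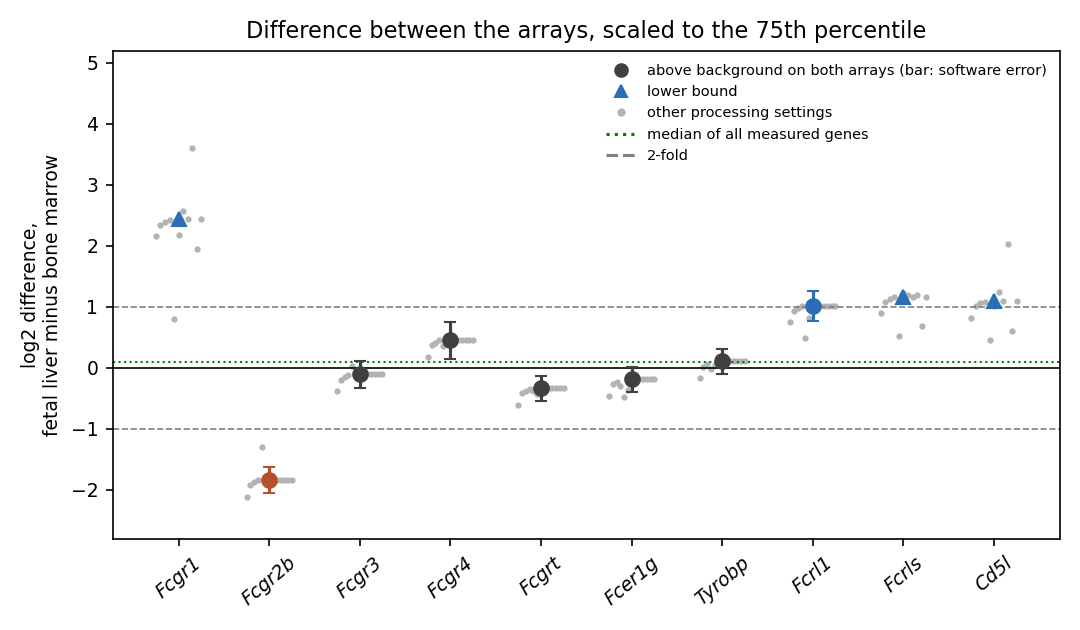
Log2 difference, fetal liver minus bone marrow, of each of the 10 genes, as a point with the software error or as a triangle where it is a lower bound, with the 13 alternative processing settings as small grey points where they give a value. Fcgr2b lies below the lower 2-fold line in every setting, Fcgr1 lies above the upper line in all settings that give it a value but normexp, and Fcrl1, Fcrls and Cd5l scatter around the upper line.

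Signal on these arrays is a mean over many cells, so fewer cells of a type and less RNA per cell cannot be told apart. Of the genes behind the sort, Kit differed by 0.0052 ± 0.20 and the Sca-1 gene Ly6a by -2.28 ± 0.20. Of lineage markers, Cd3e gave signals of 838 and 898 and Itgam of 4910 and 3883 in bone marrow and fetal liver. Ly6g had no named probe here.

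Fcgr1 and Cd5l are macrophage genes, so the macrophage markers were read beside them. Over all measured genes 6.73% passed toward fetal liver and 8.17% toward bone marrow. Of 19 such markers on the arrays 11 were measured, with 0 that passed toward fetal liver and 2 toward bone marrow, Spic (-1.97) and Vcam1 (at least 2.81-fold), and the median was -0.27. Normexp left 0 toward bone marrow, and the authors' value table gave 1 toward fetal liver. Median signal minus local background gave 1 toward fetal liver and 3 toward bone marrow. With the 5th percentile as the floor of a bound Vcam1 was at -0.95, under 2-fold. Marco, a macrophage scavenger receptor, was like Cd5l not well above background in bone marrow (7.26) and above it in fetal liver (17.6), a bound of 1.90-fold. The complement gene C1qb was above background on both arrays (21.4 and 15.8, bone marrow first) and C1qc in bone marrow (20.5). Marco, C1qb and C1qc are named after their values were seen. The macrophage and Kupffer cell genes C1qa, Cd163, Mrc1, Timd4, Vsig4, Clec4f and Mertk were dim on both arrays, meaning not well above background. Csf1r, the macrophage growth factor receptor, differed by 0.30 ± 0.20 and Adgre1, which encodes F4/80, by 0.07 ± 0.30. The summed signal of the list was 62.4 times the 75th percentile in bone marrow and 59.1 times in fetal liver.

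Fcgr2b is expressed by B cells and many myeloid cells, so markers of these types were read beside it. Over all measured genes 8.17% passed toward bone marrow and 6.73% toward fetal liver. Of 13 measured monocyte markers 4 passed toward bone marrow and 0 toward fetal liver (median -0.44, summed signal 331 in bone marrow against 281), led by Cd14 at -4.14 and F13a1 at -2.33. Of 14 measured neutrophil markers 8 passed toward bone marrow and 0 toward fetal liver (median -1.16, summed signal 1010 and 855), led by Chil3 at -4.67. Of 9 measured mast cell and basophil markers 4 passed toward bone marrow and 0 toward fetal liver (median -0.67, summed signal 21.5 and 15.3), led by the basophil protease Mcpt8 at -3.79, and normexp left 1. Their part in the Fcgr2b value was not tested. B cell markers had 2 of 7 measured past 2-fold toward fetal liver, Bank1 (3.12) and Cr2 (1.45), and 0 toward bone marrow (median 0.09, summed signal 24.8 and 32.2). Spike-in scaling moved the median to -0.18 and put 1 past 2-fold toward bone marrow, the pre-B cell receptor chain gene Vpreb1 (-1.02, and -0.75 otherwise), named after its value was seen. Blnk, Cd72 and Jchain, which B-lineage cells are also known to express, are given under other lists and were brighter in bone marrow. The B cell genes Cd79a, Ms4a1, Pax5, Ebf1, Igll1 and Blk were dim on both arrays.

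Other markers went several ways, with the bone marrow sum given first. The shares of all measured genes were 6.73% toward fetal liver and 8.17% toward bone marrow. NK and T cell markers had 1 of 11 measured past 2-fold toward fetal liver, Gzma at least 8.15-fold, and 4 toward bone marrow (median -0.30, summed signal 80.6 and 23.7). Normexp left 1 of these markers toward fetal liver and 2 toward bone marrow. With only genes above background on both arrays, 0 and 2 were left in that order. Dendritic markers had 3 of 12 toward fetal liver and 4 toward bone marrow (median -0.57, summed signal 394 and 284). Megakaryocyte markers had 1 of 10 toward fetal liver and 3 toward bone marrow (median 0.13, summed signal 55.2 and 71.2). Hepatocyte markers had 1 of 9 toward fetal liver and 3 toward bone marrow (median -0.30, summed signal 93.2 and 95.5), with Alb dim on both arrays. Erythroid markers had 6 of 9 toward fetal liver and 0 toward bone marrow (all 9 positive, summed signal 100.03 and 771). LSK genes had 0 of 12 toward fetal liver and 1 toward bone marrow (median -0.22, summed signal 644 and 578).

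Around the 10 members, the receptors that use the same adaptors were read from lists of known partners. Beside the counts of these and the following lists, 6.73% of all measured genes passed toward fetal liver and 8.17% toward bone marrow. Of 12 other Fc receptor genes, 5 were measured. The 1 past 2-fold was Fcer1a, the IgE-binding chain that is assembled with Fcer1g, with a signal of 43.6 in bone marrow and a bound of 3.32-fold. Its unbounded difference was -3.81 ± 1.46, and normexp put it at -0.41. Its other partner Ms4a2 was dim on both arrays, as were Fcrl6, Fcrla, Fcrlb, Fcamr, Fcmr and Fcgbp.

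Genes on the list of Fcer1g-paired receptors and their subunits went both ways, with 3 of 11 measured past 2-fold toward fetal liver and 2 toward bone marrow (median 0.34). Brighter in fetal liver were Gp9, a subunit of the platelet von Willebrand factor receptor, at 1.40 ± 0.20, the lectin receptor Clec4n at 2.14-fold and the lectin receptor Clec4e at 1.06 ± 0.20. Under spike-in scaling both lectin receptors were under 2-fold and Gp9 was at 1.13. Higher in bone marrow were Trem3 at -2.58 ± 0.30 and Gp1bb, another subunit of the platelet receptor, at -1.98 ± 0.30, and normexp put them at -0.99 and -0.56. The listed platelet genes Gp6 and Gp1ba were under 2-fold, at 0.11 ± 0.38 and 0.53 ± 0.23. Trem3 stood in this list although it is known to use Tyrobp. The list of receptors paired with Tyrobp, which left out Trem3, had 0 of 7 measured past 2-fold in either direction (median 0.28). A further 9 were dim on both arrays. As Trem3 passed toward bone marrow, the count of 0 does not hold for all measured receptors that use Tyrobp.

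Of 34 measured ITAM adaptors, kinases and effectors, 0 passed toward fetal liver and 4 toward bone marrow (median 0.07), and spike-in scaling made the latter 8. They were adaptors of the step after the receptor, Blnk at -3.82 ± 0.22, Lat2 at -2.59 ± 0.21 and Lat at -1.35 ± 0.20, and the T cell receptor chain Cd3d, at least 2.87-fold higher. With the 5th percentile as the floor of a bound Cd3d was at -0.98, and normexp put it at -0.26, both under 2-fold. Inhibitory receptors and phosphatases had 2 of 27 measured past 2-fold toward fetal liver and 2 toward bone marrow (median 0.0082, with 1 and 6 under spike-in scaling). Over all measured genes these shares were 6.73% and 8.17%. The inhibitory receptors Cd72 (-4.66 ± 0.21) and Lair1 (-3.37 ± 0.22) were higher in bone marrow. The mean over its 2 probes put Lair1 at -2.12. The adaptor Dok2 (1.98 ± 0.20) and the receptor Sirpa (1.12 ± 0.20, and 0.85 under spike-in scaling) were higher in fetal liver.

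Complement and phagocytic receptors had 2 of 13 measured past 2-fold toward fetal liver, Cr2 at 1.45 ± 0.31 and the integrin chain Itgb2 at 1.36 ± 0.20, and 0 toward bone marrow (median 0.26). Normexp put Cr2 at 0.61 and Itgb2 at 0.99, and the mean over its 2 probes put Cr2 at 0.94. With probe means, 1 gene of this list passed toward fetal liver and 1 toward bone marrow. A list drawn up around Cd5l and Fcgrt also holds peptide transporter and macrophage genes, so its counts do not describe binding partners alone. Of its genes, 5 of 11 measured passed toward bone marrow and 0 toward fetal liver (median -0.88). They were B2m, the peptide transporter genes Tap1 (-2.13) and Tap2 (-2.04), the macrophage factor Spic (-1.97) and Jchain, the joining chain of IgM and IgA, at least 15.7-fold. The scavenger receptor genes Cd36, Cd163 and Msr1 of that list were dim on both arrays.

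**Figure D4:**
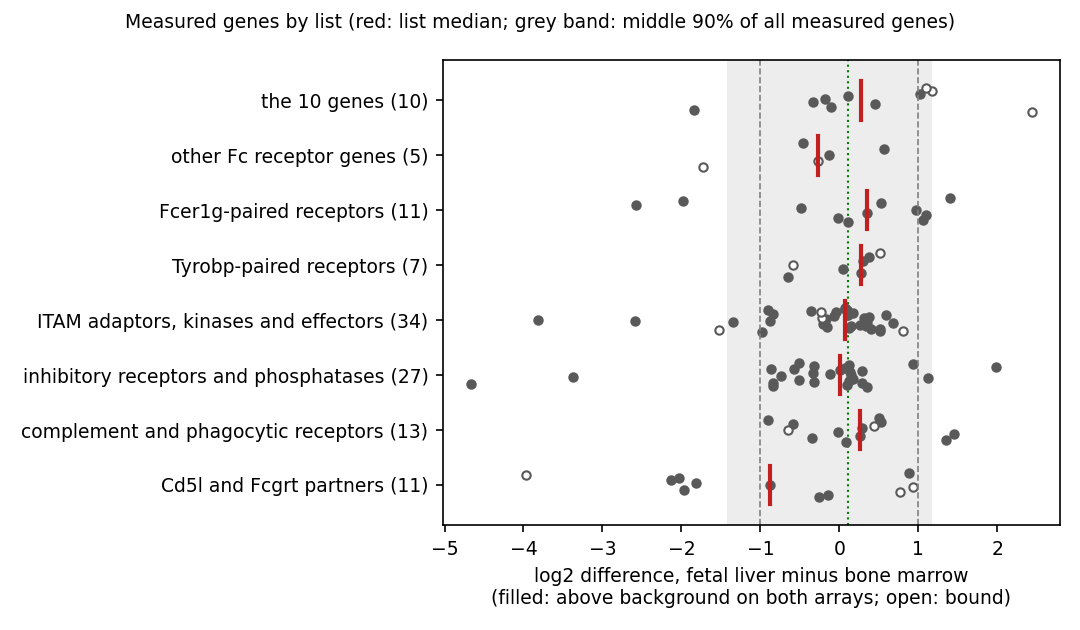
Log2 difference, fetal liver minus bone marrow, of each measured gene in the 10 members and 7 lists of related genes, with the number measured in brackets, the list median as a red line, 2-fold as dashed lines, the median of all measured genes as a green dotted line and the middle 90% of all measured genes as a grey band. Most genes lie between the 2-fold lines. The list drawn up around Cd5l and Fcgrt, labelled as their partners, has the lowest median, -0.88.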

How the data were processed

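Total RNA of LSK cells, 20 ng per the labels' protocols, was labelled with Cy3 and hybridised to 1 array per group. The authors deposited linear spot intensity values that, per the file headers, came from Agilent Feature Extraction 10.7.1.1 after background subtraction and removal of the spatial trend, unscaled between arrays (array design on build mm9). Deposited flags, of other units, mark outlier, saturated and well-above-background spots. The authors' table of linear ratio values equalled each processed signal over a constant, 178.6 for bone marrow and 133.9 for fetal liver (within 0.1% for 99.99% of single-spot probes). It was neither logged nor centred by gene (column medians 0.0589 and 0.0604), and no source used here says how the constants were set.

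Controls and outlier spots (137 in bone marrow, 122 in fetal liver) were left out, and no spot was saturated. Spots of a probe were averaged, and a probe counted as well above background where at least 50% of its spots were flagged so, that is 47.4% and 46.4% of probes. Signals were divided by each array's 75th percentile, 178.9 and 134.0. Names came from RefSeq's table through unversioned accessions, for 27226 of 55664 probes, and a gene took its probe with the highest mean signal. Where 1 array was dim, the difference is a bound against the higher of the dim signal and the lowest signal well above background (12.4 and 9.82). Each fold given as at least holds against that limit alone. No test is possible with 1 array per group, so genes were counted at 2-fold, and the arrays' number limits the precision. All members are named. Of the 18 other lists, at most 6 genes past 2-fold in each direction are named, plus markers that check the sort. For several lists only the leading genes are named, or counts alone are given. Some list members are not reported here. Members and lists were chosen with earlier results of these data known. Of 13 alternatives, 12 were planned and normexp on median signals was chosen after seeing the files, which hold no mean signal. Python 3.11.15, numpy 2.4.6, pandas 2.3.3 and limma 3.58.1 were used, and the code was tested on simulated data.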

Additional observations from a re-analysis of the deposited data

How the results depend on the processing

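The 1 member at least 2-fold higher in bone marrow, Fcgr2b, remained so in all 13 alternatives. The count higher in fetal liver, 4, ranged from 0 to 4. It was 1 with spike-in scaling (Fcgr1), 0 with normexp, 2 with the 5th percentile of signals above background as the floor of a bound (Fcgr1 and Fcrl1), and 1 (Fcrl1) with only genes above background on both arrays or the brightest such probe, which by construction drop Fcgr1, Fcrls and Cd5l. The median difference of the members, 0.28, was 0.0081 with spike-in scaling and -0.11 with either restriction to both arrays. No member at least 2-fold apart changed sign. Over all genes, the counts higher in fetal liver and bone marrow were 901 and 1093, and 552 and 1593 with spike-in scaling, 379 and 606 with normexp, and 1685 and 1658 with no filter on dim probes. The planned normexp on mean signals was not run, as no such column was in the files. No paired analysis was possible because each group has 1 array. For Fcgr1, Fcrls and Cd5l the background of the bone marrow array limits the value to a bound.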

Other observations

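Between Fcgr3 and Fcer1g on chromosome 1 lies Pcp4l1, a small protein gene related to the calmodulin-binding Pcp4, singled out after its value was seen. Its signals of 4263 and 371, bone marrow first, gave a difference of -3.11, larger in size than that of any of the 4 members in the same stretch. Of the 11 protein-coding genes from Fcgr2b to Fcer1g, 9 were measured. Pcp4l1 and Fcgr2b were the 2 that passed 2-fold toward bone marrow, and 0 passed toward fetal liver. Over all measured genes 8.17% passed toward bone marrow. The stretch was set by members, with Fcgr2b as 1 end, so these counts describe it only.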
